A study of Homo sapiens with 6 samples.

Results

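Genes of the kinetochore and the spindle checkpoint were examined in cells that carry the label Daudi, the name of a Burkitt lymphoma line of B-cell origin, with and without knockdown of the glycolytic enzyme ENO1. The 37 genes were taken by symbol, as centromere proteins, outer kinetochore subunits, checkpoint proteins and chromosomal passenger subunits, from a table of 58273 gene identifiers. Each symbol was found on 1 row, and all 37 were expressed above 0.5 FPKM in every library. FPKM is the number of sequenced fragments scaled by transcript length and library size. The study compared 3 libraries labelled wild type with 3 libraries labelled ENO1 knockdown, which carried a short hairpin RNA (shENO1), and both groups were numbered from 1 to 3. No library is labelled as carrying a control hairpin, so the presence of a hairpin and the loss of ENO1 cannot be told apart. Whether the knockdown cells were 1 clone or a pool, and which promoter drove the hairpin, was not stated in any source used. The labels do not say that the libraries came from separate cultures, so the p-values cover the variation among these libraries alone, and that variation may be technical.

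The kinetochore is the protein assembly that joins a chromosome to the spindle. CENP-A, a histone H3 variant placed by its chaperone HJURP, marks the centromere, and an inner network of CENP proteins built on it recruits the Mis12 and Ndc80 complexes, which hold microtubules together with the Ska complex. The checkpoint kinases and the Mad and Bub proteins delay anaphase until every kinetochore is attached, and the chromosomal passenger complex loosens wrong attachments. Many of these genes are transcribed mainly in late S phase, G2 and mitosis, and dividing lymphoid and myeloid cell lines express them at high levels.

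ENO1 was at 927, 998 and 1747 FPKM in wild type replicates 1 to 3 and at 212, 242 and 368 FPKM in shENO1 replicates 1 to 3. The knockdown libraries held 22.4% of the wild type mean, and the groups did not overlap. The log2 fold change was -2.14 (SE 0.29), with a limma adjusted p of 0.518, or 0.00374 with the replicate number as a block. The FPKM of a library summed to between 958697 and 1053890. FPKM keeps no absolute depth, and the relative depth read from the steps of low values ran from 1 to 1.28 times that of wild type replicate 1. Of 12 B-cell markers only 7 reached 0.5 FPKM in any library, and CD79B, POU2AF1 and BLK were listed at 0 in all 6. MS4A1 and IGHM stayed at or below 0.101 FPKM. Of 12 myeloid markers 10 reached 0.5 FPKM, with a summed level of 858 to 1416 FPKM in wild type and 912 to 1460 FPKM in shENO1, against 17.0 to 20.1 and 15.4 to 18.9 FPKM for the B-cell markers. The labelled cell type was thus not matched by several of its defining markers, and the name Daudi is used here only as the label.

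Compared with wild type, the kinetochore and checkpoint genes leaned to slightly higher levels in shENO1, and no single gene passed the test. The log2 fold change was above 0 for 35 of 37 genes, against 49.2% of all 17870 genes tested and 52.8% of the 9298 protein-coding genes with a mean of 5 FPKM or more. Wild type replicate 2 was the lowest library for 32 of the 37, so the genes moved together. Counts over them, here and below, are therefore not counts of independent observations, and they were not tested. The median was 0.19 on the log2(FPKM + 0.5) scale, against -0.0036 over all genes tested. The range ran from -0.11 for SKA2 to 0.44 for SPC24. The spread of the genes' library medians within a group was 0.17 (pooled SD), so the median shift was about the size of the spread between libraries.

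With limma, 0 of 37 genes had an adjusted p under 0.05 with a change over 2-fold, and the share over all genes tested was 0%. The adjusted p was 0.9999 for each of the 37. ENO1 itself did not pass in this fit either (limma adjusted p 0.518), so not passing says little about smaller shifts. At an unadjusted p under 0.05 there was 1 gene, SPC24, which was higher in shENO1, against 0.901% of all genes tested. The 95% interval of the log2 fold change lay within 2-fold in both directions for 36 of 37 genes, and for ZWINT it reached 1.02. With the replicate number as a block, 10 of 37 genes were higher at an unadjusted p under 0.05, against 3.77% of all genes tested and 4.88% of the protein-coding genes. In this fit 0 of 37 passed after adjustment, the smallest adjusted p was 0.585, and 0.0056% of all genes tested passed, which was ENO1 alone.

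The 3 shENO1 values all lay above the 3 wild type values for 3 of 37 genes, SPC24, CENPO and NSL1, against 2.71% of all genes tested and 2.67% of the protein-coding genes. The opposite order was found for 0 of 37, against 3.28% of all genes tested. The count of 3 is small, and nothing was read from it. Within replicate pairs, 19 of 37 were higher in shENO1 in all 3 replicate pairs, against 14.1% of all genes tested and 17.2% of the protein-coding genes, and 0 were lower in all 3.

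**Figure D1:**
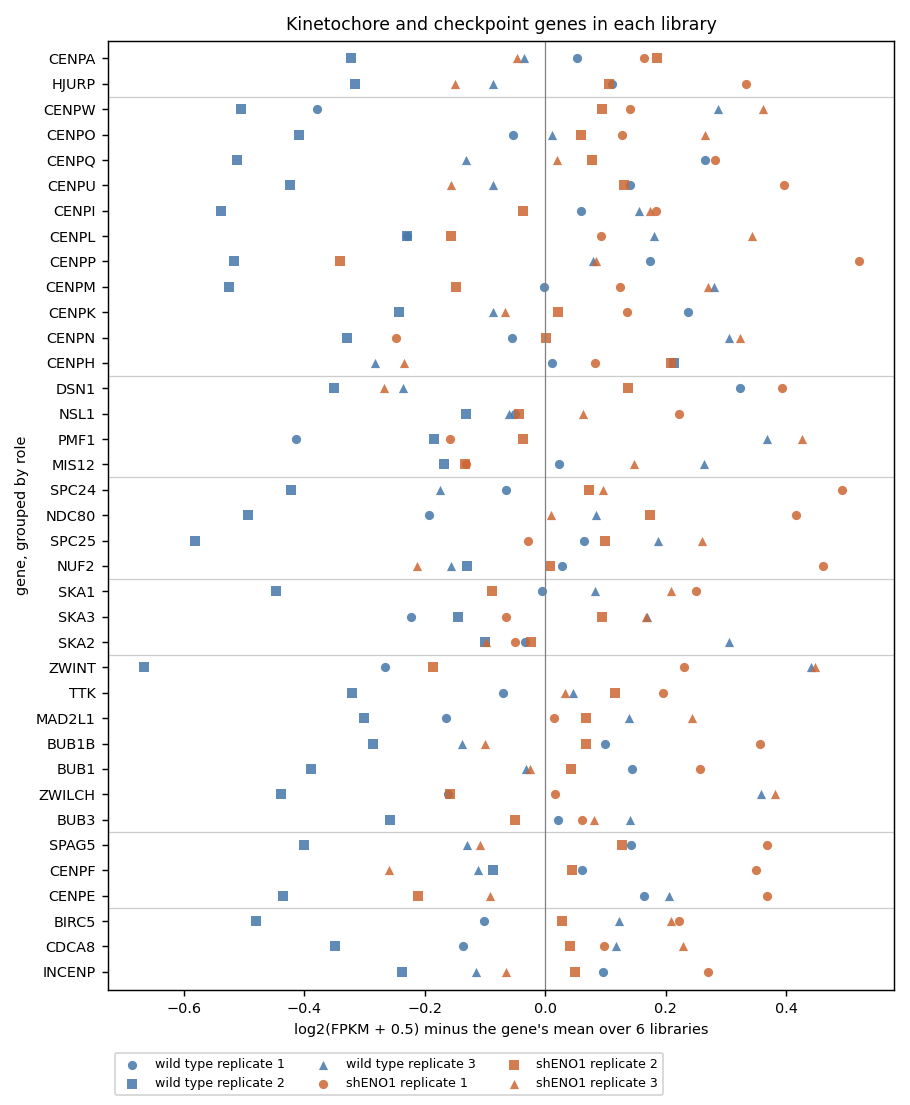
Level of each gene in each library, as log2(FPKM + 0.5) minus the gene's mean over the 6 libraries (x axis), with genes grouped by role (y axis); colour gives the group and marker shape the replicate number. Wild type replicate 2 (blue squares) was the lowest library for 32 of 37 genes, and shENO1 replicate 1 (orange circles) the highest for 19.

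The difference was larger with wild type replicate 2 than without it. This library was the lowest of the 6 libraries for 32 of 37 genes, while this held for 14.8% of all genes tested. The median deviation of the 37 genes from their own means was -0.35 in that library, against 0.01 in wild type replicate 1, 0.08 in wild type replicate 3, and 0.20, 0.04 and 0.08 in shENO1 replicates 1 to 3. Over all genes tested the median deviation of wild type replicate 2 was 0.0089, so the low values were not shared by the typical gene. Without wild type replicate 2, the median log2 fold change was 0.09 and 26 of 37 genes lay above 0. Among the genes with the largest values, it was then 0.34 for SPC24, 0.25 for NDC80, 0.25 for CENPW and 0.17 for CENPO, against 0.44, 0.40, 0.40 and 0.30 with all libraries.

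CENPA, which encodes the centromeric histone itself, was at 62.1, 47.8 and 58.5 FPKM in wild type and at 67.2, 68.2 and 58.0 FPKM in shENO1. The ranges overlapped, because shENO1 replicate 3 lay below wild type replicates 1 and 3. Means were 56.1 ± 7.43 and 64.5 ± 5.64 FPKM in the same order (SD, n = 3 each), and the log2 fold change was 0.20 (SE 0.14). The gene (ENSG00000115163.14) lies on the plus strand at chr2:26764289-26801067 (GRCh38, GENCODE 29), and this annotation starts the gene upstream of the RefSeq start used for its promoter. Its chaperone HJURP was expressed at a lower level, 24.3, 18.0 and 21.1 FPKM in wild type and at 28.5, 24.2 and 20.2 FPKM in shENO1. Both genes thus behaved alike within the pairs, with shENO1 higher in pairs 1 and 2 and wild type slightly higher in pair 3. HJURP gave a log2 fold change of 0.19 (SE 0.18).

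The inner kinetochore network bridges CENP-A chromatin and the outer plate. The median log2 fold change of its 11 genes was 0.19, and each lay above 0, between 0.04 for CENPH and 0.40 for CENPW. CENPW, a histone-fold protein that pairs with CENP-T, was at 31.6, 28.9 and 50.3 FPKM in wild type and at 45.5, 44.0 and 53.0 FPKM in shENO1. Wild type replicate 3 lay within the shENO1 range, and the difference rested on replicates 1 and 2 (log2 fold change 0.40, SE 0.22). CENPO, a subunit of the CENP-O subcomplex that helps bring the mitotic kinase PLK1 to kinetochores, was at 42.1, 32.7 and 44.0 FPKM in wild type and at 47.7, 45.5 and 52.5 FPKM in shENO1. These groups did not overlap, with a mean of 39.6 ± 6.01 against 48.6 ± 3.59 FPKM and a log2 fold change of 0.30 (SE 0.15). CENPO shares 1488 exon bases with ADCY3 on the other strand, and no source used here says whether reads were counted by strand. CENPU, of the same subcomplex, was at 40.3, 27.1 and 34.4 FPKM in wild type and at 48.3, 40.1 and 32.7 FPKM in shENO1, with overlapping groups.

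CENPH, which forms a subcomplex with CENP-I, CENP-K and CENP-M, was the 1 gene of the inner network that was highest in wild type replicate 2. It was at 30.1, 34.7 and 24.5 FPKM in wild type and at 31.6, 34.6 and 25.3 FPKM in shENO1, so its values followed the replicate number and hardly differed between groups. Its partners CENPI, CENPK and CENPM had log2 fold changes of 0.21, 0.06 and 0.17. The remaining genes, CENPL, CENPN, CENPP and CENPQ, lay between 0.05 and 0.25. CENPP had the lowest level of all 37 genes, at 7.69 ± 1.96 FPKM in the wild type libraries against 8.83 ± 2.76 FPKM with the hairpin.

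**Figure D2:**
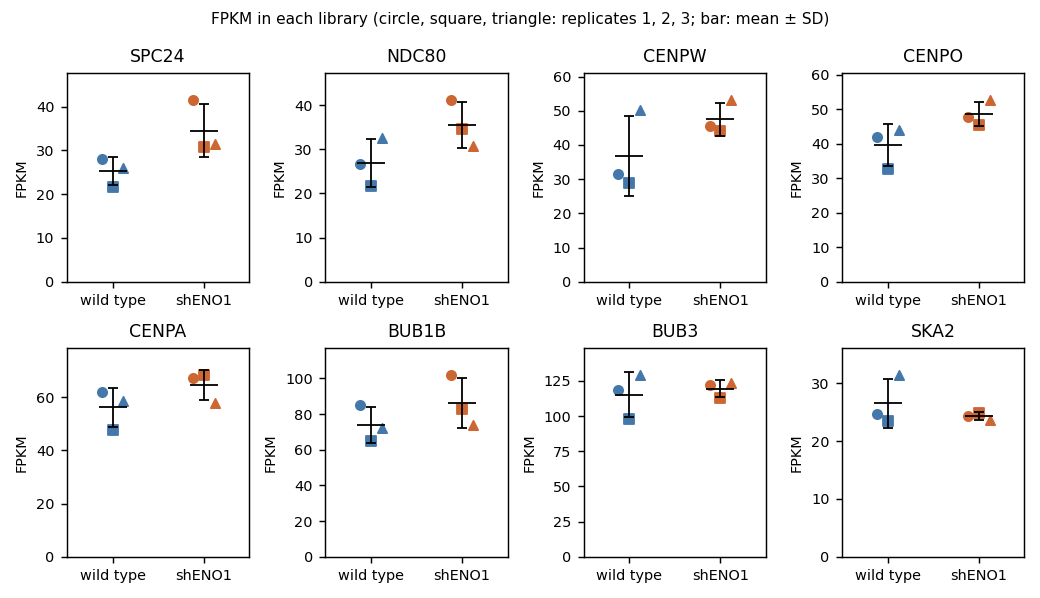
FPKM (y axis, from 0) of 8 genes in the 3 wild type and 3 shENO1 libraries (x axis); symbols are libraries and bars are mean ± SD. The groups do not overlap for SPC24 and CENPO, overlap for NDC80, CENPW, CENPA and BUB1B, and are nearly level for BUB3 and SKA2.

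The Mis12 complex links the inner network to the microtubule-binding plate. NSL1 was at 39.4, 37.2 and 39.1 FPKM in wild type and at 47.6, 39.5 and 42.6 FPKM in shENO1, without overlap, but shENO1 replicate 2 exceeded wild type replicate 1 only narrowly. Its log2 fold change was 0.16 (SE 0.12). DSN1, the subunit through which Aurora B promotes the tie to the inner network, was at 30.03, 18.6 and 20.2 FPKM in wild type and at 31.6, 26.4 and 19.8 FPKM in shENO1. Here the highest wild type value exceeded 2 of the 3 shENO1 values. PMF1 differed more between libraries of 1 group than between groups, at 37.7, 44.2 and 65.1 FPKM in wild type and at 45.0, 49.0 and 67.8 FPKM in shENO1. MIS12 was at 15.8, 13.8 and 18.8 FPKM in wild type and at 14.1, 14.1 and 17.3 FPKM in shENO1 (log2 fold change -0.08, SE 0.17). It was 1 of the 2 genes below 0, within the spread between replicates.

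Of the complexes, Ndc80, the main microtubule coupler, had the largest median log2 fold change, 0.31 over its 4 genes, although differences between complexes were not tested. SPC24, which anchors the coupler to the Mis12 complex together with SPC25, was at 28.0, 21.7 and 25.9 FPKM in wild type and at 41.4, 30.8 and 31.3 FPKM in shENO1. It was higher in 3 of 3 pairs without overlap, with a mean of 25.2 ± 3.19 against 34.5 ± 5.96 FPKM. Its log2 fold change of 0.44 (SE 0.17) was the largest of the 37, and the limma adjusted p was 0.9999, or 0.585 with the replicate block. SPC24 (ENSG00000161888.11) lies on the minus strand at chr19:11131520-11155808. NDC80, which binds the microtubule through its N-terminal part, was at 26.7, 21.6 and 32.5 FPKM in wild type and at 41.0, 34.6 and 30.8 FPKM in shENO1. The pairs disagreed, with shENO1 higher in pairs 1 and 2 and lower in pair 3 (log2 fold change 0.40, SE 0.19).

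The other 2 subunits differed less. SPC25 was at 18.9, 11.9 and 20.6 FPKM in wild type and at 17.7, 19.4 and 21.7 FPKM in shENO1, where only the low value of wild type replicate 2 separated the means. Without that library its log2 fold change was -0.015 instead of 0.22. NUF2, the partner of NDC80 at the microtubule-binding end, ranged from 39.4 to 44.8 FPKM in wild type and from 37.8 to 60.7 FPKM in shENO1, with 1 high value in shENO1 replicate 1. The 4 proteins form a complex in equal parts, but their wild type transcript levels per length differed, from 17.1 FPKM for SPC25 to 41.4 FPKM for NUF2.

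The Ska complex stabilises the grip of Ndc80 on a shortening microtubule. SKA1 was at 24.5, 17.9 and 26.1 FPKM in wild type and at 29.3, 23.1 and 28.5 FPKM in shENO1 (log2 fold change 0.25, SE 0.19). SKA3 was at 17.3, 18.3 and 22.9 FPKM in wild type and at 19.4, 21.7 and 22.9 FPKM in shENO1. SKA1 was higher in 3 of 3 pairs and SKA3 in pairs 1 and 2, and the groups overlapped for both. SKA2 lay on the other side of 0 (-0.11, SE 0.15). It was at 24.7, 23.6 and 31.4 FPKM in wild type and at 24.4, 24.9 and 23.6 FPKM in shENO1, so the lower mean came from 1 high library, wild type replicate 3, and without it the value was 0.0096.

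The 7 genes of the spindle checkpoint all lay above 0, and their median log2 fold change was 0.22. TTK, the kinase also called MPS1 that starts the signal, was at 20.5, 17.1 and 22.2 FPKM in wild type and at 24.7, 23.3 and 22.0 FPKM in shENO1. MAD2L1, whose protein MAD2 binds CDC20 and so restrains the anaphase-promoting complex, was at 45.7, 41.6 and 56.6 FPKM in wild type and at 51.8, 53.8 and 60.8 FPKM in shENO1. Its groups overlapped through wild type replicate 3 alone, and shENO1 was higher in 3 of 3 pairs. BUB1B encodes BUBR1, another inhibitor of CDC20, and was at 84.9, 64.9 and 72.0 FPKM in wild type and at 102, 83.1 and 73.9 FPKM in shENO1. The log2 fold change was 0.23 (SE 0.15) for TTK, 0.22 (SE 0.15) for MAD2L1 and 0.22 (SE 0.16) for BUB1B.

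BUB1, the kinase that scaffolds the checkpoint at kinetochores, and ZWILCH, a subunit of the complex that brings dynein there, had log2 fold changes of 0.18 and 0.16. ZWINT, which links that complex to the kinetochore, had 0.33 with the widest error of the group (SE 0.30), since its libraries ran from 32.7 to 71.3 FPKM. BUB3, the adaptor of both BUB1 and BUBR1, had the highest level of all 37 genes, 115 ± 15.9 FPKM without the hairpin and 119 ± 5.83 FPKM with it. Its log2 fold change was 0.06 (SE 0.13), so the most abundant gene was also among the least different.

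The 3 genes of the fibrous corona and the spindle had log2 fold changes of 0.04 to 0.26. SPAG5, also called astrin, stabilises attached microtubules. It was at 51.7, 35.3 and 42.7 FPKM in wild type and at 60.5, 51.1 and 43.4 FPKM in shENO1 (log2 fold change 0.26, SE 0.19). CENPF, a large corona protein, was at 78.2, 70.5 and 69.3 FPKM in wild type and at 95.6, 77.3 and 62.5 FPKM in shENO1. The shENO1 group held both the highest and the lowest value, and the log2 fold change was 0.09 (SE 0.17). CENPE, the kinesin that carries chromosomes to the plate, was at 15.1, 9.76 and 15.5 FPKM in wild type and at 17.4, 11.5 and 12.5 FPKM in shENO1 (log2 fold change 0.04, SE 0.24).

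The chromosomal passenger complex carries Aurora B to the inner centromere, and all 3 of its genes listed here were higher in shENO1 in 3 of 3 pairs, against 14.1% of all genes tested. BIRC5, or survivin, was at 20.5, 15.6 and 24.0 FPKM in wild type and at 25.7, 22.4 and 25.5 FPKM in shENO1. CDCA8, or borealin, was at 44.7, 38.5 and 53.3 FPKM in wild type and at 52.6, 50.5 and 57.7 FPKM in shENO1. INCENP, the scaffold, was at 86.7, 68.8 and 74.8 FPKM in wild type and at 98.0, 84.0 and 77.5 FPKM in shENO1. The groups overlapped for each of them. The log2 fold changes were 0.31 (SE 0.18), 0.25 (SE 0.15) and 0.17 (SE 0.14), and the unadjusted limma p was below 0.05 for all 3 with the replicate block, against 3.77% of all genes tested, and for 0 of 3 without it. Without wild type replicate 2 the log2 fold changes were 0.14, 0.13 and 0.10. AURKB, the gene of Aurora B itself, is not among the 37 and was named after its values were seen. It was at 68.0, 52.5 and 57.6 FPKM in wild type and at 75.3, 62.9 and 50.2 FPKM in shENO1, lower in pair 3 and with a log2 fold change of 0.07 (SE 0.18).

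**Figure D3:**
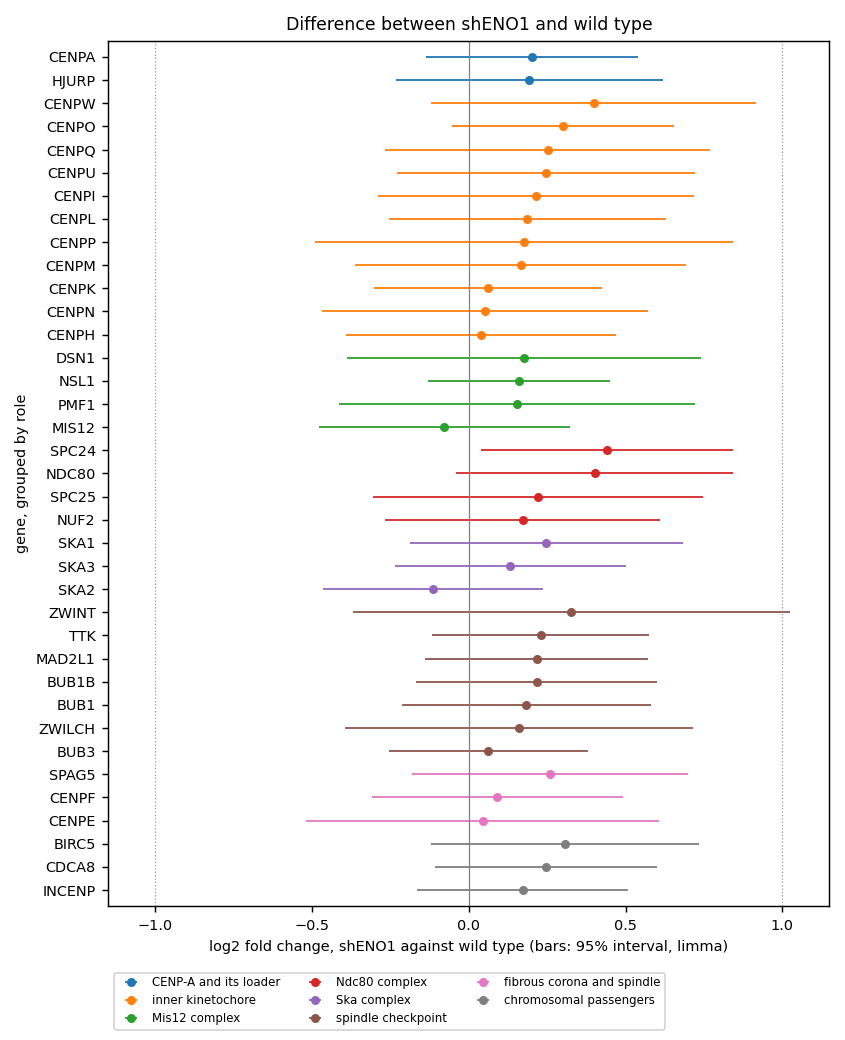
log2 fold change of shENO1 against wild type (x axis) for each of the 37 genes (y axis), with 95% intervals from limma and colour by role. Of 37 points 35 lie to the right of 0, 1 interval (SPC24) does not include 0, and dotted lines mark 2-fold.

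The size of the difference depended on the replicate pair. Over the 37 genes, the median log2 ratio of shENO1 to wild type came to 0.20, 0.37 and 0.02 for pairs 1 to 3, and 32, 36 and 23 of 37 genes were higher in shENO1. Over all genes tested the medians were -0.0082, -0.0070 and -0.0042. Pair 2 holds wild type replicate 2, the library with the low values. In pair 3 the centromeric histone and its chaperone were both lower in shENO1, and all 3 passenger genes were higher.

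**Figure D4:**
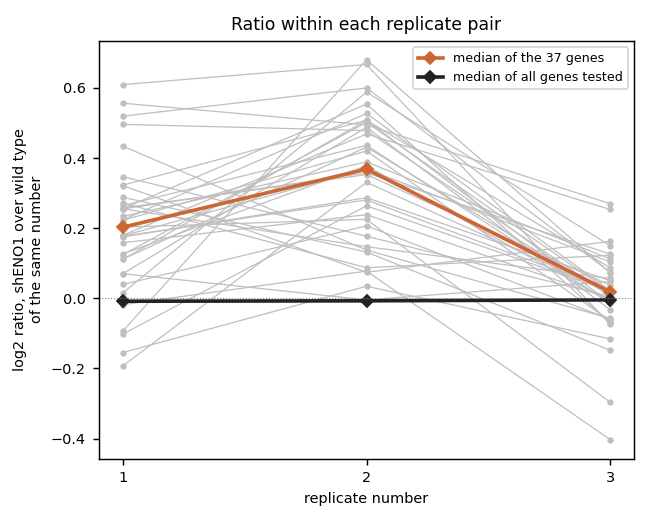
log2 ratio of shENO1 to wild type within each replicate number (y axis) for pairs 1 to 3 (x axis); grey lines are the 37 genes, and the thick lines are the median of the 37 (orange) and of all genes tested (black). The orange line stands at 0.20, 0.37 and 0.02, and the black line stays near 0.

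Both libraries numbered 3 also stood apart from the other 4, and the genes did not follow it in 1 direction. For 13 of 37 genes both libraries numbered 3 were above the other 4, against 22.9% of all genes tested, and for 3 of 37 they were below, against 24.6%. ZWINT, PMF1 and ZWILCH stood highest in them, by 0.67, 0.60 and 0.55 on the log2 scale, followed by CENPW with 0.49. CENPH, DSN1 and CENPF stood lowest, by -0.39, -0.38 and -0.28. Members of 1 complex were thus found at both ends, such as PMF1 and DSN1 of the Mis12 complex. Without both libraries numbered 3, the median log2 fold change between the groups was 0.28 and 15 of 37 genes did not overlap, while with 2 libraries a group 15.9% of all genes tested lay higher without overlap.

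Other genes that act at the same structures were taken from lists, which were chosen with earlier results of these data known. Of each list the 2 genes with the smallest p are named, so these were picked by their values. Of 25 further centromere and kinetochore genes, 20 lay above 0 with a median of 0.12, and limma called 0 of 25. The lowest of them was MAD1L1, at -0.18. KIF2C, a kinesin that takes microtubule ends apart at centromeres, was at 86.0, 60.0 and 79.3 FPKM in wild type and at 91.3, 86.1 and 86.4 FPKM in shENO1. Its groups were separated by a narrow margin, and 4% of this list lay higher without overlap, against 2.71% of all genes tested. KNSTRN, a partner of SPAG5, was at 55.2, 44.3 and 51.1 FPKM in wild type and at 65.4, 54.3 and 57.3 FPKM in shENO1. KIF2C and KNSTRN both had their lowest value in wild type replicate 2, as most of the 37 did.

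Downstream of the checkpoint lies the anaphase-promoting complex. Its subunits, activators and targets, listed together with ESPL1, were divided, with 10 of 19 genes above 0, a median of 0.0075 and 0 of 19 called. The 9 genes below 0 were all subunits or FZR1, though other subunits, such as ANAPC7 (0.21), lay above 0. CDC20 and CCNB1 had 0.18 and 0.26. This division was seen in the values and was not tested. ESPL1 encodes separase, the protease that opens cohesin, and was at 47.5, 31.8 and 47.5 FPKM in wild type and at 59.5, 50.5 and 57.5 FPKM in shENO1. PTTG1 encodes securin, its inhibitor, and was at 116, 112 and 113 FPKM in wild type and at 146, 168 and 118 FPKM in shENO1. Neither gene overlapped between groups, and the log2 fold changes were 0.42 (SE 0.18) and 0.33 (SE 0.15), with a limma adjusted p of 0.9999 for each. Both were named for their small p, and 2.71% of all genes tested lay higher without overlap. Without wild type replicate 2 the log2 fold change was 0.23 for ESPL1 and 0.32 for PTTG1. For PTTG1 the 3 wild type libraries lay close together, so the low values of wild type replicate 2 were not shared by it. Of 11 cohesin genes 9 lay above 0 with a median of 0.09 and 0 called. The smallest p belonged to RAD21, the subunit that separase cleaves (0.19, SE 0.13), and PDS5B, a regulator of cohesin on chromatin (0.20, SE 0.14).

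General markers of proliferation had log2 fold changes of the same sign as most of the kinetochore genes. MKI67, PCNA, TOP2A, CCNB1 and CDK1 were all above 0, from 0.14 for MKI67 to 0.31 for CDK1, and their median deviation in wild type replicate 2 was -0.34. Their summed level was 543 to 724 FPKM in wild type, against 709.9 to 760 FPKM in shENO1. Their part in the kinetochore result was not tested. In bulk RNA, more cells in division and more of these transcripts in each dividing cell cannot be told apart.

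The promoters were examined since the genes leaned the same way and since many mitotic genes carry a cell cycle homology region, a short element close to the transcription start that is bound by the DREAM and MuvB complexes, often beside CCAAT boxes bound by NF-Y. Windows from 250 bases before to 50 after the start were taken from RefSeq (GRCh38.p14) and matched by symbol for 31 of 37 genes. Where a gene had more than 1 window, only the first listed was used, so motifs at its other starts were not counted. The windows of CENPI (from chrX:101100808) and NUF2 (from chr1:163321704) lay downstream of their gene starts in GENCODE 29 (101098218 and 163266576). For SPC25, on the minus strand, the window ran down from chr2:168890680, also downstream of its gene start (168913371). For these genes and CENPA, the start named below is the RefSeq start and not that of GENCODE 29. The motif was searched as TTTGAA or TTCGAA on both strands, the CCAAT box as CCAAT on both strands, and an E2F-like motif as TTTGGCGC, TTTCGCGC or TTTCCCGC on both strands, and matches of different motifs may overlap. The homology region motif was found in 18 of 31 windows (58.1%), against 16.6% of the windows of 27305 genes. It lay with its first base from 30 bases before to 50 after the start in 16 of 31 (51.6%), against 3.98% of all genes. A CCAAT box was present in 19 of 31 (61.3%) against 35.7%. The E2F-like motif was present in only 3 of 31 (9.68%) against 2.79%, and nothing was read from so small a count. The reference of 27305 genes was not limited to protein-coding or expressed genes, while the 31 were all expressed. Motif shares among expressed protein-coding genes alone were not computed. A match is a description of letters, not of a bound site.

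The stretches from 100 bases before to 50 after the start are shown for 6 of the 16 genes with the homology motif near the start. They are also shown for SPC24 and SKA2, the genes with the largest and the smallest log2 fold change, which had none in the window. Capitals mark the homology region motif and CCAAT boxes in either orientation, and each sequence runs 5′ to 3′ on the strand of the gene.
NDC80, chr18:2571457-2571606, plus strand: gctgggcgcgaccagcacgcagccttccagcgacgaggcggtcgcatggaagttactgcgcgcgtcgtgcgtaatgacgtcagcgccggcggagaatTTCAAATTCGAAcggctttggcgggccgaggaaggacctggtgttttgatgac
SPC25, chr2:168890381-168890530, minus strand: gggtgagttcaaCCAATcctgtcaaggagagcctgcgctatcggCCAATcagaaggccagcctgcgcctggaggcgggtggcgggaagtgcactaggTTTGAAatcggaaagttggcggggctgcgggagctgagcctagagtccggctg
CENPA, chr2:26785956-26786105, plus strand: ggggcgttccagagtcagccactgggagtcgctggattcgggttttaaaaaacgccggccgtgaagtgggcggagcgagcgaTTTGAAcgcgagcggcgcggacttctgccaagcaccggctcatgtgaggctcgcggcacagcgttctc
CENPW, chr6:126340015-126340164, plus strand: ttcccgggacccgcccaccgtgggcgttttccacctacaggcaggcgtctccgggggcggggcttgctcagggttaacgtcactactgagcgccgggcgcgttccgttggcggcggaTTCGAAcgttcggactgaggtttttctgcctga
BUB1B, chr15:40160969-40161118, plus strand: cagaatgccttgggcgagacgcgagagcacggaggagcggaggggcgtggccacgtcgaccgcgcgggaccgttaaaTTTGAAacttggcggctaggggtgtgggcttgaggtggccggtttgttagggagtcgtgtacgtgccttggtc
CDCA8, chr1:37692416-37692565, plus strand: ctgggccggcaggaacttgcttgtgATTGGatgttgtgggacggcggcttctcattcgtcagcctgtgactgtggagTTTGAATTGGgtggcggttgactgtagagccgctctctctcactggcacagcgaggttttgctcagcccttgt
SPC24, chr19:11155733-11155882, minus strand: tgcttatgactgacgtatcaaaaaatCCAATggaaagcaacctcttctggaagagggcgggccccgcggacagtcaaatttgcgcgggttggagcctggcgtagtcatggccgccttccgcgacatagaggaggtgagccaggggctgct
SKA2, chr17:59155137-59155286, minus strand: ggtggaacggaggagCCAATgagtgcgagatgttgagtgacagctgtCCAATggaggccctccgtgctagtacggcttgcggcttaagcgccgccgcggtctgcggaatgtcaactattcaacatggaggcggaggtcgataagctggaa
In NDC80 a pair of homology motifs stood side by side at the start. In CDCA8 the motif shared its last base with an inverted CCAAT box. SPC25 held 2 CCAAT boxes upstream of its motif, and SKA2, which lay below 0, held CCAAT boxes but no homology motif.

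**Figure D5:**
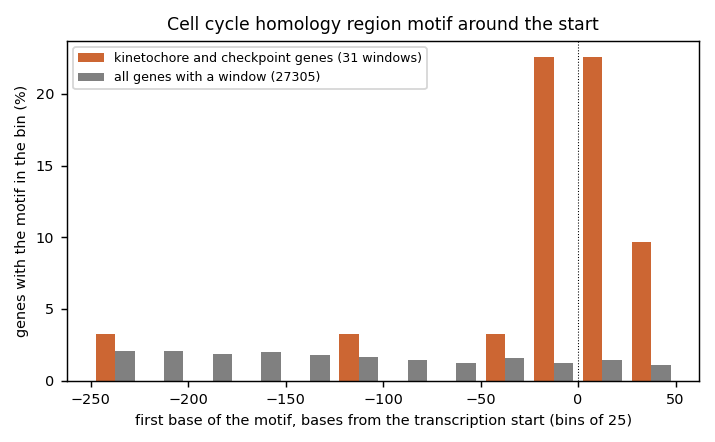
Share of genes (y axis, %) whose window holds the homology region motif, by the distance of its first base from the transcription start (x axis, bins of 25 bases), for 31 kinetochore and checkpoint genes (orange) and 27305 genes (grey). The orange bars stand highest in both bins beside the start, at 22.6% each, where the grey bars are at 1.22% and 1.40%.

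The median log2 fold change was 0.22 for the 16 genes with the motif near the start and 0.18 for the 15 others with a window, and the gap was not tested. The 2 genes below 0, MIS12 and SKA2, were both without the motif, but so were SPC24 and DSN1, which lay above 0. The 6 genes shown with the motif had log2 fold changes of 0.20 or more. Of the genes that also held it near the start and are not shown, CENPN and CENPF had 0.05 and 0.09. SKA3, INCENP, NUF2 and BUB1 had 0.13, 0.17, 0.17 and 0.18, and MAD2L1, SKA1, SPAG5 and CENPO had 0.22, 0.25, 0.26 and 0.30. The 6 shown thus do not stand for all 16.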

How the data were processed

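Total RNA of 3 wild type and 3 shENO1 libraries was sequenced after TruSeq library preparation. The deposited table holds FPKM, 1 value per gene and library, produced by the authors using Cuffnorm. STAR and Cufflinks are also listed in the submitters' processing notes, without versions, and the genome is given there as hg38 or GRCh38. The library scaling and the use of strand are not given in the sources used here. Cufflinks divides reads between overlapping genes by estimate, and 15 of the 37 genes share exon bases with another gene in GENCODE 29.

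A gene was tested if 3 or more of the 6 libraries reached 0.5 FPKM (17870 genes) as log2(FPKM + 0.5), which understates changes of low genes. limma 3.58.1 (R 4.3.3) was fitted over the whole table with an intensity trend and no covariate, two-sided, with Benjamini-Hochberg adjustment, and thresholds of 0.05 and 2-fold as in the methods of the study. The study used DESeq2 on reads, which were not used here. The fit was checked on simulated data. Exact permutation tests of 3 against 3 cannot go below 0.1. The genes, lists, motifs and the reference of protein-coding genes with a mean of 5 FPKM or more were chosen with earlier results of these data known. Values per library are given for the 3 genes of each role with the smallest p, for the 3 with the largest and the 3 with the smallest log2 fold change, and for ENO1. Of each other list the 2 genes with the smallest p are named. The remaining genes are given by means or ranges.

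With group means removed, libraries of the same number correlated across genes by 0.312, 0.176 and 0.491, and the other combinations by -0.390 to 0.144. Removing group means by itself forces some combinations below 0, so part of this contrast is built in. For number 2 the value was close to the 0.144 between wild type replicate 1 and shENO1 replicate 2. The pairing was read from the values, since the labels do not say what a number stands for. Values of 1 item withheld for evaluation are not reported here.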

Additional observations from a re-analysis of the deposited data

How the results depend on the processing

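In each alternative run, 0 of the 37 genes were called. With the replicate block the count over all genes was 1, with library weights 4 and without both libraries numbered 3 it was 2, and the replicate block changed no call of the 37. Scaled to the same FPKM sum, 5 of 37 genes were higher without overlap in place of 3, while the share over all genes tested went from 2.71% to 3.56%, and without both libraries numbered 3 there were 15, against 15.9%. When 1 library was left out, this count ran from 3 to 14, reaching 14 when wild type replicate 3 was dropped, 9 for wild type replicate 1 and 6 for shENO1 replicate 2 or 3, and the share over all genes tested was then 10.1%, 7.19%, 5.46% and 7.99%. The genes above 0 numbered 26 to 36 and the median 0.09 to 0.26, both lowest without wild type replicate 2, and the median was 0.33 with library weights. An alternative chosen after seeing the data, without genes that share exon bases, gave 0.18. The 4 rescalings moved the median over all genes by at most 0.04.

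ENO1 passed both thresholds with the replicate block (limma adjusted p = 0.00374), with library weights and without both libraries numbered 3, and not in the other fits. Small differences turned sign. With library weights CENPH was at -0.0054 and SKA2 at 0.0098, and SKA2 was at 0.030 without both libraries numbered 3. When 1 library was left out, the log2 fold change ran from -0.093 to 0.16 for CENPH, -0.19 to 0.0096 for SKA2, -0.021 to 0.38 for PMF1, -0.16 to 0.16 for CENPE, -0.015 to 0.37 for SPC25, -0.18 to 0.034 for MIS12 and -0.061 to 0.24 for CENPF. FPKM without read counts limits what can be said of precision, and with 3 libraries a group the 95% interval included 0 for 36 of 37 genes.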
